A study of Homo sapiens with 6 samples.

Results

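Small nucleolar RNA (snoRNA) host long non-coding RNAs were examined in HK-2 cells with and without GDF5. The members were chosen by gene symbol in the deposited table: GAS5, SNHG1, SNHG5, SNHG6, SNHG7, SNHG8, SNHG12, SNHG15, SNHG16 and SNHG29, 10 of 34157 genes. HK-2 is an established, immortalised human line from kidney proximal tubule epithelium. The 2 groups were control HK-2 cells (3 libraries) and HK-2 cells given the bone morphogenetic protein family ligand GDF5 at 100 ng/ml for 48 hours (3 libraries). The labels call the untreated cells wildtype, and name no vehicle. RNA was sequenced from total RNA with strand-specific libraries, and the labels do not tell whether replicates were grown as independent cultures. A p-value here therefore reflects library-to-library spread, which may be technical. In bulk RNA, fewer cells of a kind and less RNA per cell cannot be told apart.

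A snoRNA host gene carries snoRNAs inside its introns. After splicing, the introns are trimmed to free snoRNAs, which guide 2′-O-methylation (box C/D class) or pseudouridylation (box H/ACA class) of ribosomal RNA, while the spliced exons leave as a long non-coding RNA. Many of these spliced RNAs start with a pyrimidine tract of the kind called 5′ TOP, carry short open reading frames, and are removed by nonsense-mediated decay when ribosomes translate them. Their steady-state level therefore depends on transcription, translation and decay together, as background knowledge.

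The libraries held between 43883500 and 56038333 reads assigned to genes. GDF5 replicate 1 was the least like the others of its group: over genes with at least 20 reads in a pair, counting both mates as 1, its chi-square per gene was 4.15 with GDF5 replicate 2 and 4.71 with GDF5 replicate 3, while that pair gave 1.56. Control pairs gave 2.59 to 4.07. Values between groups were 16.5 to 24.3. Mitochondrial reads took 7.92% to 8.71% of a control library and 10.1% to 10.3% of a GDF5 library. Of 8 tubule epithelial markers, 7 reached 1 RPKM (reads scaled by gene length and by library total). Their summed level was 516.2 to 540.5 RPKM in control and 460.8 to 481.4 RPKM in GDF5 libraries. None of 5 markers of differentiated proximal tubule reached 1 RPKM, and LRP2, the megalin receptor, was at 0.000918 RPKM in control. Among 5 fibroblast markers LUM (73.7 RPKM in control, 69.9 RPKM with GDF5) and DCN were present, while PDGFRA was at 0.00208 and 0.00756 RPKM and COL3A1 at 0.0170 and 0.0274 RPKM. No endothelial or blood marker reached 1 RPKM.

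To show where the members start, a window of 60 bases was taken around the RefSeq start (10 bases before it and 50 from it, GRCh38.p14, in the gene's direction). A window was found for 8 members. Capitals mark CTTT, a short pyrimidine word of the kind found in 5′ TOP tracts.

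GAS5: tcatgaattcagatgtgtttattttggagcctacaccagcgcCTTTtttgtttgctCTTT
SNHG7: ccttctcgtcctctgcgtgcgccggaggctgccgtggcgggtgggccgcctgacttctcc
SNHG1: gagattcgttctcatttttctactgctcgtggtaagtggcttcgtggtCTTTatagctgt
SNHG29: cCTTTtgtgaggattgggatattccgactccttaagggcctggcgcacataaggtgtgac
SNHG16: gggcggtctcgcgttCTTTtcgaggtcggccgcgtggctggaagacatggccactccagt
SNHG12: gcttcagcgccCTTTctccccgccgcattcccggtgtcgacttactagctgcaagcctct
SNHG8: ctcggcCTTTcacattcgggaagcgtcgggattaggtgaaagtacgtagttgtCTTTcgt
SNHG5: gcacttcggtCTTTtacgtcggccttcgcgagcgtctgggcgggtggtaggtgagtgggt

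CTTT stood on the gene's strand in 7 of the 8 windows, and in 21.1% of 35116 RefSeq windows of the same length. On either strand the counts were 7 of the 8 members and 36.1% of all windows. The window of SNHG7 held none. A match is a description of these letters and not a site, and the count takes CTTT anywhere in the window. In SNHG5 CTTT begins at the RefSeq start, and in SNHG12 and SNHG16 shortly after it. In SNHG29 it lies before the start, in GAS5 and SNHG1 far into the window, and in SNHG8 at both such places. The count therefore does not give the number of 5′ TOP starts. The start used matters: RefSeq and GENCODE 29 gave the same start for SNHG7, starts 2 bases apart for SNHG16, and for GAS5 a GENCODE start 163 bases further downstream. For the other 5 windows the GENCODE position relative to the RefSeq start was -1259 bases for SNHG12, -165 for SNHG29, -53 for SNHG8, -29 for SNHG1 and -15 for SNHG5, negative meaning upstream. All of these 5 windows and those of GAS5 and SNHG16 hold CTTT, so the count of 7 applies to RefSeq starts only.

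The members spanned a wide range of levels in control cells. GAS5 was highest at 27.4 ± 0.303 RPKM (SD, n = 3), followed by SNHG6 at 23.0 ± 1.29, SNHG29 at 21.5 ± 0.248 and SNHG1 at 10.7 ± 0.228 RPKM. SNHG16 (5.95 ± 0.279), SNHG15 (4.10 ± 0.408), SNHG7 (3.55 ± 0.331), SNHG12 (3.07 ± 0.130) and SNHG8 (2.28 ± 0.146 RPKM) formed a lower tier. SNHG5 was last at 0.183 ± 0.0554 RPKM. The control ranges overlapped between SNHG6 and SNHG29 and between SNHG15 and SNHG7, and were apart for other neighbours in this order. In GDF5 cells SNHG7 and SNHG12 were the neighbours in this control order whose ranges overlapped. The order by mean differed there: SNHG29 (21.0 RPKM) was above SNHG6 (19.4), with ranges apart, and SNHG12 (2.67) above SNHG7 (2.55).

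**Figure D1:**
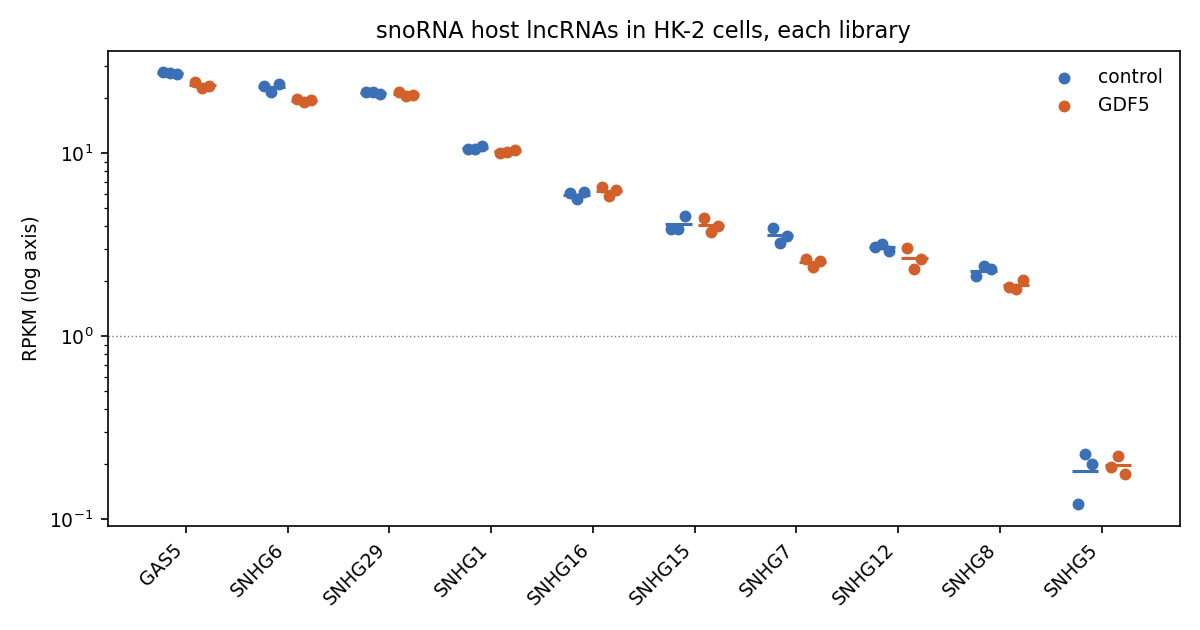
RPKM on a log axis of the 10 host lncRNAs in each library (points) with group means (bars), control in blue and GDF5 in orange; the dotted line is the tested level of 1 RPKM. GAS5, SNHG6, SNHG1, SNHG7 and SNHG8 have GDF5 points below all control points, and SNHG5 lies far below the dotted line.

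This order rests on the gene length that the authors divided by. The length implied by the deposited values was 6608 bases for SNHG8, against 923 bases of exon in GENCODE 29, a ratio of 7.16. With introns the SNHG8 gene spans 1115 bases in GENCODE 29, so most of the authors' length lies outside that gene. It was 12604 against 2806 bases for SNHG5, 7176 against 3759 for SNHG29 and 4842 against 3631 for GAS5. For SNHG6 and SNHG12 both lengths were the same, at 1247 and 4266 bases. With the GENCODE 29 lengths and every read kept, SNHG29 led at 41.0 RPKM in control, GAS5 came next at 36.6, and SNHG8 moved up to 16.4, above SNHG1 at 11.3. These recomputed levels are upper values, since some reads may lie in parts that GENCODE 29 does not hold. A gene's length is the same in all 6 libraries, so as a divisor it enters the changes below only through the pseudocount. Any reads that the authors counted outside a GENCODE 29 gene are part of its change.

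**Figure D2:**
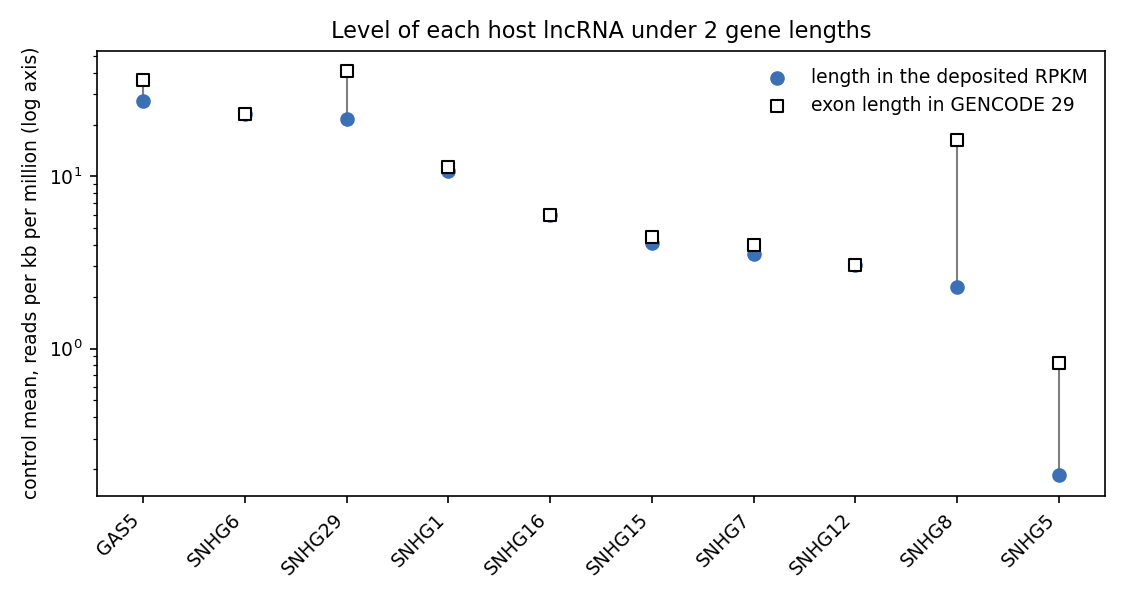
Control mean level of each host lncRNA, in RPKM on a log axis, with the length behind the deposited RPKM (blue) and with the GENCODE 29 exon length (squares). SNHG8 goes from 2.28 to 16.4 and SNHG29 from 21.5 to 41.0, while SNHG6 and SNHG12 stay in place.

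Comparing GDF5 with control, the host lncRNAs fell or did not pass the test. Of the 9 members tested (mean of at least 1 RPKM), 3 were lower at a limma adjusted p under 0.05 and 0 were higher. SNHG7, GAS5 and SNHG6 were the members called, with mean RPKM down by 28.4%, 14.0% and 15.8%. Over all 12476 tested genes 25.0% were called, 17.5% lower and 7.48% higher, so 3 of 9 stands against a common background of lower calls. The median log2 change of the 9 was -0.15, and of all tested genes -0.050. Changes are on the scale of log2(RPKM + 1), which understates the change of low genes.

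SNHG7, the host of box H/ACA snoRNAs of the SNORA17 group, showed the lowest log2 change of the 9 (ENSG00000233016, chromosome 9, 136721366 to 136728184, minus strand, GRCh38). Control replicates 1 to 3 were at 3.90, 3.25 and 3.51 RPKM. GDF5 replicates 1 to 3 were at 2.65, 2.40 and 2.59 RPKM. All GDF5 libraries lay below all control libraries, and the nearest values were 2.65 and 3.25 RPKM. The log2 change was -0.36 with a standard error of 0.063 (limma adjusted p = 0.00762). The reads behind it were 716 to 963 per control library and 515 to 725 per GDF5 library. In the authors' deposited table SNHG7 had a log2 fold change of -0.42 and an adjusted p of 0.00049.

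GAS5, first known as a transcript that accumulates in growth-arrested cells, is a host of box C/D snoRNAs and a textbook 5′ TOP RNA, though GENCODE 29 annotates no snoRNA within it (ENSG00000234741, chromosome 1, 173863900 to 173868882, minus strand). Control replicates 1 to 3 were at 27.7, 27.4 and 27.1 RPKM. GDF5 replicates 1 to 3 were at 24.6, 22.9 and 23.3 RPKM. The control values were close together and all above the GDF5 values. The log2 change was -0.21 with a standard error of 0.034 (limma adjusted p = 0.00604). With 4862 to 7358 reads per library, GAS5 had the narrowest counting error of the 3 called members. In the authors' deposited table the log2 fold change was -0.15 with an adjusted p of 0.00492.

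SNHG6, host of SNORD87 on chromosome 8 (ENSG00000245910, minus strand), followed the same direction. Control replicates 1 to 3 were at 23.4, 21.6 and 24.1 RPKM. GDF5 replicates 1 to 3 were at 19.7, 19.0 and 19.5 RPKM. The GDF5 libraries were tightly grouped and all below control. The log2 change was -0.24 with a standard error of 0.044 (limma adjusted p = 0.00949). In the authors' deposited table its log2 fold change was -0.18 and its adjusted p of 0.0959 was not under 0.05. That table called 2 of the 10 members, SNHG7 and GAS5, and 2982 of 34156 genes (8.73%). This base includes genes below 1 RPKM, so its share is unlike the 25.0% of the limma test, taken over 12476 genes.

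SNHG8, the host of the H/ACA snoRNA SNORA24, was also lower in every GDF5 library but missed the threshold. Control replicates 1 to 3 were at 2.12, 2.41 and 2.32 RPKM, and GDF5 replicates at 1.86, 1.82 and 2.02 RPKM. The groups did not overlap, though the nearest values, 2.12 and 2.02 RPKM, were close. The log2 change was -0.18 with a 95% interval from -0.31 to -0.047 (limma adjusted p = 0.0564).

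SNHG1, which carries a row of box C/D snoRNAs, moved least among members whose groups did not overlap. Control replicates 1 to 3 were at 10.6, 10.6 and 10.99 RPKM, and GDF5 replicates at 10.1, 10.2 and 10.4 RPKM. The gap between the groups was smaller than the range within either. Its log2 change was -0.061 (95% interval -0.14 to 0.014, limma adjusted p = 0.199), and it was -0.0093 with median-of-ratios scaling and -0.011 with limma-voom on reads. In all, 5 of the 9 tested members had every GDF5 library below every control library and 0 the reverse, against 30.4% and 13.5% of all tested genes, or 43.9% for either direction.

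The other 4 tested members had overlapping groups. SNHG12 was at 3.09, 3.18 and 2.93 RPKM in control replicates 1 to 3 and at 3.03, 2.32 and 2.64 RPKM in GDF5 replicates 1 to 3. GDF5 replicate 1 lay inside the control range and the other GDF5 libraries below it. The log2 change was -0.15 (limma adjusted p = 0.168). Without GDF5 replicate 1, the library least like the others of its group, it was -0.22 and passed the test (limma adjusted p = 0.0444). This made 4 members lower, beside 2159 lower and 940 higher of all 12476 tested genes in that setting.

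SNHG29, the host of SNORD49A, SNORD49B and SNORD65 and the member with the most reads, was at 21.7, 21.5 and 21.2 RPKM in control replicates 1 to 3. GDF5 replicates 1 to 3 were at 21.6, 20.5 and 20.9 RPKM. Its log2 change of -0.032 had a 95% interval from -0.10 to 0.041, so a fall as large as that of GAS5 lay outside the interval. SNHG15, host of SNORA9, was at 3.86, 3.86 and 4.57 RPKM in control and at 4.43, 3.70 and 3.99 RPKM in GDF5 libraries. The wide control range left its log2 change of -0.016 with an interval from -0.19 to 0.16. For both SNHG29 and SNHG15 the sign turned with median-of-ratios scaling, to 0.022 and 0.029, with no call.

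SNHG16, host of the SNORD1 group, was the 1 tested member with a log2 change above 0. Control replicates 1 to 3 were at 6.10, 5.63 and 6.13 RPKM. GDF5 replicates 1 to 3 were at 6.51, 5.87 and 6.34 RPKM. The groups overlapped, and the log2 change of 0.057 (interval -0.058 to 0.17) did not pass the test (limma adjusted p = 0.422). SNHG5, below the tested level, was at 0.121, 0.227 and 0.201 RPKM in control and at 0.193, 0.222 and 0.177 RPKM in GDF5 libraries, with overlapping groups.

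**Figure D3:**
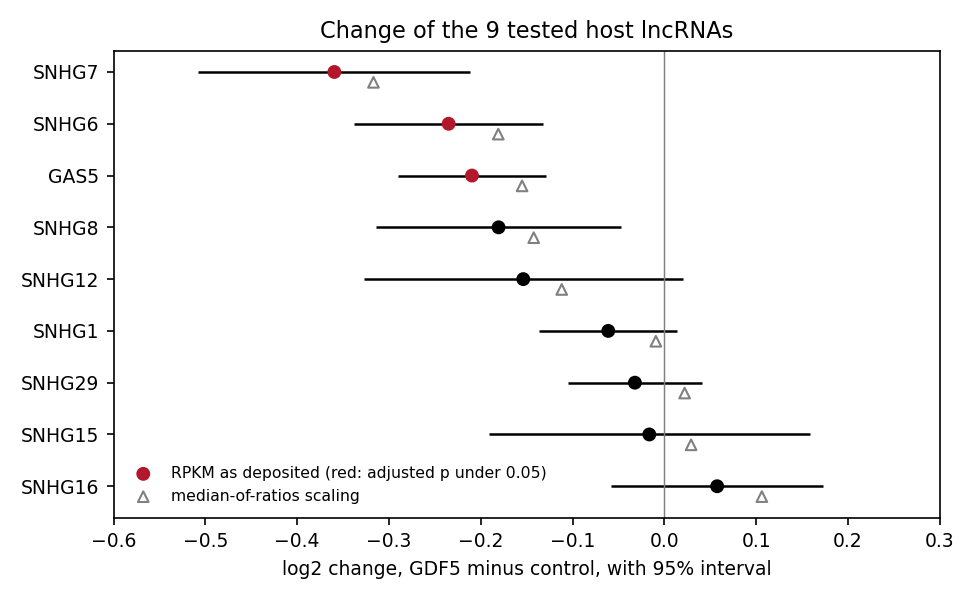
Log2 change of GDF5 minus control on the log2(RPKM + 1) scale for the 9 tested host lncRNAs (circles with 95% intervals, red where called) and the same after median-of-ratios scaling (triangles). SNHG7, SNHG6 and GAS5 lie below 0 in both, while SNHG29 and SNHG15 sit at 0 and turn sign.

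Scaling bears on changes of this size, because RPKM are shares of all reads and mitochondrial reads took more of the GDF5 libraries. When library totals excluded mitochondrial reads, the log2 changes of SNHG7, SNHG6 and GAS5 were -0.34, -0.21 and -0.18, and all 3 were called. Of all 12476 tested genes 1657 were then lower and 1197 higher. With median-of-ratios scaling they were -0.32, -0.18 and -0.16, again all called, while 10.8% of all tested genes were then lower and 12.2% higher.

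A view that needs no scaling is the share each member takes of the reads of all 10. GAS5 held 29.2 ± 0.367% of these reads in control and 27.3 ± 0.316% with GDF5 (SD, n = 3 each). SNHG7 held 3.82 ± 0.329% and 2.98 ± 0.0670%, and SNHG6 6.32 ± 0.310% and 5.79 ± 0.0875%. Each of these 3 members held a smaller share in every GDF5 library than in any control library. SNHG29 went from 33.95 ± 0.477% to 36.1 ± 0.225% and SNHG16 from 7.03 ± 0.275% to 8.001 ± 0.190%, both with every GDF5 library above control. Shares sum to a whole, so these rises and falls are not separate results and were given no test. The 10 members together held 21930, 20305 and 25533 reads in control replicates 1 to 3 and 24210, 17741 and 22681 reads in GDF5 replicates 1 to 3. These sums are not scaled for library depth. Scaled by library total as in RPKM, but not by gene length, they were 457, 450 and 456 in control replicates 1 to 3. In GDF5 replicates 1 to 3 they were 432, 404 and 418, all below control. The shares of SNHG29 and SNHG16 thus rose within a lower scaled sum. These library totals include mitochondrial reads.

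Few of the snoRNAs inside these genes could be read. GENCODE 29 places 26 snoRNA entries within 9 of the members, some of them duplicate entries of 1 snoRNA. Of these, 23 lie wholly inside annotated exons of the host and 1 in part, and none of the 24 has a row in the table. The 2 that lie wholly outside host exons, SNORD99 in SNHG12 and SNORD1B in SNHG16, both have a row. Every row of the table has reads in at least 1 library. The sources used here do not give how reads shared by 2 genes were counted, and the part of that in the listing was not tested. Of 35 snoRNA names fixed for the members, 4 had a row, and 2 of these rows, SNORD27 and SNORD79, are copies on chromosomes 13 and 4 outside the hosts. SNORD99 and SNORD1B are shown because they are the only snoRNAs inside a member that have a row. Whether their reads come from free snoRNA or from unspliced host RNA was not tested. The C box word TGATGA and the CTGA nearest the 3′ end, the D box word, are in capitals.

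SNORD99: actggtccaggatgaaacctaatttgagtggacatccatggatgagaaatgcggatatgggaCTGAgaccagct
SNORD1B: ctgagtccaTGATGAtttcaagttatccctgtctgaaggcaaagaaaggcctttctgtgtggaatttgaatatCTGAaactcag

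Both are GENCODE 29 sequences on GRCh38, SNORD99 at chromosome 1, 28578749 to 28578822 on the minus strand, and SNORD1B at chromosome 17, 76561109 to 76561192 on the plus strand. SNORD99 holds CTGA and no TGATGA, while SNORD1B holds both and further CTGA left in lower case. SNORD99 was at 3.66, 3.00 and 6.996 RPKM in control and 2.41, 4.003 and 6.23 RPKM in GDF5 libraries, from 10 to 29 reads. The groups overlapped widely and it was not called (log2 change -0.091, limma adjusted p = 0.861). SNORD1B had 4, 0 and 0 reads in control replicates 1 to 3 and 8, 6 and 4 in GDF5 replicates 1 to 3, too few to compare.

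Genes on the opposite strand overlap several members, and no source used here says whether the authors counted by strand. DIPK1B had 27 to 62 reads per library, against 515 to 963 for SNHG7. MCMDC2, which shares 365 exon bases with SNHG6, had 168 to 259, against 1041 to 1683 for SNHG6. LRRC75A had 36 to 77, against 6443 to 8697 for SNHG29. As it is not known how shared reads were counted, these counts do not give the reads in shared bases. Their part in the changes was not tested. TRNAU1AP, which shares 8 exon bases with SNHG12, had 959 to 1247 reads per library, more than the 435 to 724 of SNHG12 itself. GAS5-AS1, antisense to GAS5, had 28 to 51 reads. ZBTB37, whose gene body reaches into GAS5 but whose exons share no base with those of GAS5 in GENCODE 29, had 2389 to 2914 reads.

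Of 20 further snoRNA host lncRNAs, all with a row, 12 were tested, and 1 was lower and 0 were higher, beside 17.5% lower and 7.48% higher among all tested genes. Their median log2 change was -0.073, and the difference between this list and the members was not tested. The 1 was SNHG32, which went from 17.2 ± 0.639 to 14.8 ± 0.881 RPKM (log2 change -0.20, limma adjusted p = 0.0233). This did not hold under median-of-ratios scaling (limma adjusted p = 0.0741). Dropping single libraries ended the call in 4 of 6 cases, at limma adjusted p-values of 0.0544 for control replicate 1, 0.0686 for control replicate 2, 0.0807 for GDF5 replicate 2 and 0.0779 for GDF5 replicate 3. It held without control replicate 3 (limma adjusted p = 0.0456) and without GDF5 replicate 1 (0.00799). With that scaling SNHG32 was no longer called and SNHG3 was, at a log2 change of 0.14 (limma adjusted p = 0.0352). In SNHG19, at 5.78 RPKM in control and 4.02 RPKM with GDF5, the log2 change was -0.43 (limma adjusted p = 0.0504), and without GDF5 replicate 2 it was -0.52 and passed (0.0494). SNHG9 passed without control replicate 1, at -0.42 (limma adjusted p = 0.0383), and had -0.22 with all libraries (0.372). SNHG30 was lower in every GDF5 library without passing (-0.14, limma adjusted p = 0.152). SNHG3, SNHG19, SNHG9 and SNHG30 are named here after their values were seen.

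Protein-coding hosts went both ways. Of 23 ribosomal protein genes that carry snoRNAs, all tested, 9 were lower and 3 higher, with a median of -0.094. Over all tested genes 17.5% were lower and 7.48% higher, with a median of -0.050. RPS12 went from 363.2 ± 14.6 to 262.1 ± 8.99 RPKM (log2 change -0.47). RPL3 had a log2 change of -0.28 and RPL23A, in the other direction, of 0.24. After median-of-ratios scaling the counts were 6 lower and 3 higher, beside 10.8% lower and 12.2% higher among all tested genes. Without GDF5 replicate 2 the counts were 5 and 2, and without GDF5 replicate 3 they were 6 and 1. Over all 12476 tested genes these settings gave 1222 lower and 538 higher, and 1321 lower and 545 higher. Ribosomal protein genes have many processed pseudogenes, so their values are uncertain where reads could be split.

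Of 21 tested protein-coding hosts outside the ribosome, 5 were lower and 5 higher, with a median of 0.012. Among all tested genes 17.5% were lower and 7.48% higher. TPT1, a translation-associated 5′ TOP gene, fell by 0.33 on the log2 scale, and EIF4A2, an RNA helicase of translation initiation, fell by 0.24. CCT6A, a chaperonin subunit, rose by 0.19 and NCL, nucleolin, by 0.17. Median-of-ratios scaling gave 2 lower and 7 higher, beside 10.8% lower and 12.2% higher among all tested genes. Without control replicate 1 the counts were 2 lower and 4 higher, without GDF5 replicate 2 they were 2 and 3, and without GDF5 replicate 3 they were 3 and 3. Over all 12476 tested genes these settings gave 1434 lower and 638 higher, 1222 and 538, and 1321 and 545.

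Genes of the proteins that bind and assemble snoRNAs were higher or not called. Of 18 snoRNP core and assembly genes 7 were higher and 0 lower, with a median of 0.081. Among all tested genes 7.48% were higher and 17.5% lower. The lists share genes: the calls of DKC1, NCL and TPT1 each count in more than 1 list. DKC1, the pseudouridine synthase of H/ACA particles, went from 29.2 ± 0.618 to 34.01 ± 1.57 RPKM (log2 change 0.21, standard error 0.039, limma adjusted p = 0.00977). ZNHIT6, a box C/D assembly factor, rose by 0.20, RPAP3, of the R2TP assembly complex, by 0.20 and NOLC1, a nucleolar and Cajal body phosphoprotein, by 0.15. With median-of-ratios scaling 8 were higher and 0 lower, beside 12.2% higher and 10.8% lower among all tested genes. The count was 4 higher and 0 lower without control replicate 1, without control replicate 2 or without GDF5 replicate 2. Over all 12476 tested genes these settings gave 638 higher and 1434 lower, 716 and 1632, and 538 and 1222.

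Factors of nonsense-mediated decay, the pathway that removes many spliced host RNAs, had a median of -0.031. Of 16 tested, 1 was lower and 0 higher, beside 17.5% lower and 7.48% higher among all tested genes. RBM8A, an exon junction complex subunit, went from 9.47 ± 0.646 to 7.99 ± 0.0675 RPKM (log2 change -0.22, limma adjusted p = 0.0168). RBM8A missed the threshold once GDF5 replicate 2 (limma adjusted p = 0.0527) or GDF5 replicate 3 (0.0531) was dropped, and with no filter (0.0586). With median-of-ratios scaling 3 were higher and 1 lower, beside 12.2% higher and 10.8% lower among all tested genes. Without GDF5 replicate 1, 3 were lower and 1 higher, and without control replicate 1 the counts were 1 and 1. Over all 12476 tested genes these settings gave 2159 lower and 940 higher, and 1434 lower and 638 higher.

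Of 15 tested 5′ TOP regulators and translation factors 5 were lower and 2 higher, with a median of -0.060. Over all tested genes the shares were 17.5% lower and 7.48% higher. EEF1A1, an elongation factor, fell by 0.20, HNRNPA1 by 0.16 and EEF1D by 0.16 on the log2 scale, beside TPT1 above. With no filter EEF1A1 missed the threshold (limma adjusted p = 0.0656). The 2 higher were EIF4E and LARP1, a binder of 5′ TOP starts, at 0.20 and 0.12, named after their values were seen. Without GDF5 replicate 2 the counts were 4 lower and 0 higher, beside 1222 lower and 538 higher of all 12476 tested genes. Of 20 tested genes of RNA polymerase I and ribosome biogenesis 4 were higher and 2 lower, with a median of 0.0016. This stands beside the same 7.48% higher and 17.5% lower among all tested genes. DDX21, a nucleolar helicase, rose by 0.23 and UBTF, an RNA polymerase I factor, by 0.14, while TAF1C fell by 0.27. UBTF missed it once GDF5 replicate 2 (limma adjusted p = 0.0516) or GDF5 replicate 3 (0.0560) was dropped. The list's count was 2 higher and 1 lower without either of these 2 libraries. All tested genes gave 538 higher and 1222 lower without GDF5 replicate 2, and 545 higher and 1321 lower without GDF5 replicate 3.

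**Figure D4:**
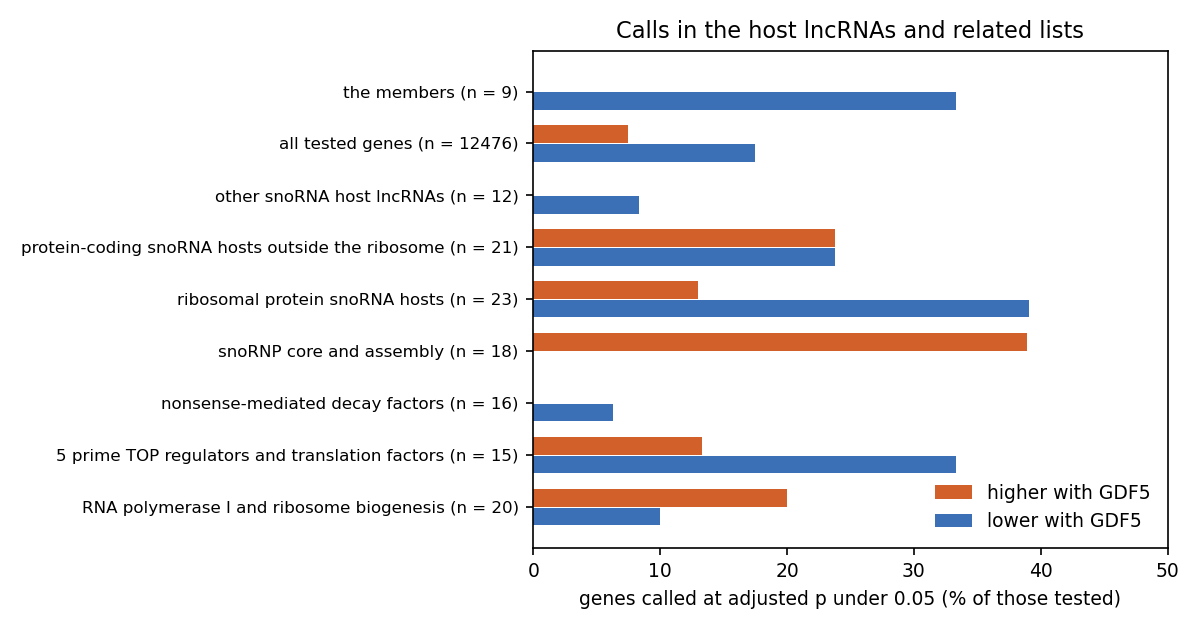
Share of tested genes called higher (orange) or lower (blue) at a limma adjusted p under 0.05 in the host lncRNAs, in all tested genes and in 7 related lists. The host lncRNAs have no higher call, and the snoRNP list has 7 higher calls of 18 and no lower one, beside 7.48% higher and 17.5% lower in all tested genes.

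The genes whose profile over the 6 libraries was most like the mean standardized profile of the 9 tested members were MAP3K10, PLEKHM2, SESN2, FLYWCH2 and NIPA2, at Pearson correlations of 0.993 to 0.997. All 6 libraries share the 2 groups, and these are the top 5 of 12476 genes searched, so the correlations are a description with no test. Their log2 changes ran from -0.26 for MAP3K10 to -0.12 for FLYWCH2, in the range of the members.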

How the data were processed

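The submitters' processing notes name HISAT2, DESeq2 and GRCh38, with no versions. Read counter, annotation and filters are not stated in the sources. The authors deposited 1 table, held in 2 identical files. The authors made the 6 library columns as RPKM, dividing reads by gene length and library total; the unit was read from the values, as the headers name none. Per the file headers, the authors also deposited group means (signal, normalised reads), a log2 fold change, a p-value and an adjusted p-value.

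Reads were recovered from the RPKM steps: of 64631 values below 20 reads, 100% came within 0.1 of whole reads, and 63.7% were even. They served for depth, gene lengths and a limma-voom alternative only. Gene positions come from GENCODE 29, which held 96.9% of the identifiers, and start windows from RefSeq.

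The main comparison used limma 3.58.1 (R 4.3.3) with an intensity trend on log2(RPKM + 1), over the 12476 genes whose mean reached 1 RPKM, without a block. Calls were made at a two-sided Benjamini-Hochberg adjusted p under 0.05, and intervals are at 95%. The fit was run on simulated data with the same spread set for every gene and no unlike library. That run does not test the calls made in these data.

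The members and lists were chosen with earlier results of these data known. Genes named are all members, up to 4 called genes per list, by lowest adjusted p, snoRNAs inside members and the 5 most alike profiles; others are marked in the text, and 1 gene that this names is not reported here. Alternatives were 2 other pseudocounts, 2 filters, 2 scalings, limma-voom, a replicate block, a stricter threshold and leaving out each library.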

Additional observations from a re-analysis of the deposited data

How the results depend on the processing

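SNHG7, GAS5 and SNHG6 were lower in the main comparison and in all other settings run, with log2 changes from -0.46 to -0.30, -0.24 to -0.16 and -0.28 to -0.18. The count of called members was 3, lower, in these settings, except without GDF5 replicate 1, where SNHG12 made it 4. Leaving out single libraries gave 3 to 4, beside 1222 to 2159 lower and 538 to 940 higher of all 12476 tested genes. The sign of SNHG15 turned with median-of-ratios scaling (0.029), mitochondrial reads left out (0.0088), limma-voom (0.036), without control replicate 3 (0.049) and without GDF5 replicate 2 (0.032). SNHG29 turned with median-of-ratios scaling (0.022) and limma-voom (0.025), and SNORD99 without control replicate 3 (0.21) or GDF5 replicate 1 (0.18). None of these was called. Leaving out single libraries gave -0.071 to 0.049 for SNHG15 and -0.36 to 0.21 for SNORD99.

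Over all genes 3116 were called, 1812 with no filter and 1285 at an adjusted p under 0.01, and 1760 to 3099 when single libraries were left out, with 2072 without control replicate 1, 1760 without GDF5 replicate 2 and 1866 without GDF5 replicate 3. Fewer libraries and a larger number of genes tested are part of how these settings are built. The replicate numbers did not pair the libraries: deviations of same-numbered libraries correlated at -0.037, 0.057 and -0.031. With the replicate number as a block 2167 genes and the same 3 members were called, and SNHG32 was not (limma adjusted p = 0.0504). Related lists moved by setting: the snoRNP list had 4 to 10 calls and the ribosomal protein hosts 4 to 14. Calls over all genes ran from 1285 to 3628 in these settings. SNHG5, with 73 to 142 reads per library, was left untested by the minimum of 1 RPKM. With the GENCODE 29 length its mean was 0.822 RPKM in control and 0.886 RPKM with GDF5, also under that minimum.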
